A study of Homo sapiens with 12 samples.

Results

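The genes described here are the long intergenic noncoding RNAs and the antisense RNAs of HL-60 cells, a human promyelocytic leukaemia line that matures along the neutrophil path when given all-trans retinoic acid (ATRA). They were chosen by symbol and by read level: a symbol that starts with LINC and a digit, or ends in -AS1, -AS2 or -AS3, with a mean of at least 1 CPM, reads scaled to counts per 1e6 reads in genes, over the 12 libraries. Of 1849 such symbols among the 26364 genes in the files, 329 met the limit (17.8%), 112 of them LINC and 217 antisense. The antisense members were 210 symbols ending in -AS1 and 7 ending in -AS2, and none of the 18 symbols ending in -AS3 was a member. RNA of untreated cells (RA0h, 0 h) was compared with RNA of cells kept in 1 µM ATRA for 4 h (RA4h), 2 d (RA2d) and 4 d (RA4d). Each time had 3 libraries, all from the HL-60 line and all in the same medium, and no separate vehicle group is among the samples analysed here. The labels do not say whether the 3 replicates of a time were separate cultures, so the tests measure the spread between these libraries.

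Most LINC genes lie between protein-coding genes, and they are transcribed and often spliced like them, but most have no long reading frame. Antisense genes are transcribed from the strand opposite a coding gene, either across its body or away from its promoter, and are named after that gene with a suffix. Most such RNAs are less abundant than mRNAs and vary more between cell types, and in blood cells several are known as markers of a lineage or of a stage of maturation. ATRA binds nuclear retinoic acid receptors, which sit on DNA as partners of the retinoid X receptor and switch from repressing to activating transcription when bound.

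The start regions of 6 members are shown because the results turn on these genes: 4 that were higher at 4 d and 2 that were lower. Each runs from 250 bases before to 50 bases after the annotated start, on the gene's own strand, in RefSeq's annotation of GRCh38.p14, and capitals mark the 50 bases after the start. LINC00900 (chr11:115760151-115760450, minus strand) and LINC00996 (chr7:150433404-150433703, plus strand) overlap no coding gene. SH3RF3-AS1 (chr2:109130070-109130369, minus strand) starts within 1 kb of the start of SH3RF3 on the other strand, and CYP1B1-AS1 (chr2:38130855-38131154, plus strand) overlaps CYP1B1. KTN1-AS1 (chr14:55580043-55580342, minus strand) overlaps KTN1, and TRG-AS1 (chr7:38341171-38341470, plus strand) lies in the T cell receptor gamma locus.
LINC00900: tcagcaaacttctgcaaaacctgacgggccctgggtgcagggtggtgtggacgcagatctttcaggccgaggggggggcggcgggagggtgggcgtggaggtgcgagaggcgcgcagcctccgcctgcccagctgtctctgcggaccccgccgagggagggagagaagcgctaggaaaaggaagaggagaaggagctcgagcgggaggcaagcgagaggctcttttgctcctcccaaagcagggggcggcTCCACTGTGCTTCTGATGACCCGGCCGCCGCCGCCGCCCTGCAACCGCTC
LINC00996: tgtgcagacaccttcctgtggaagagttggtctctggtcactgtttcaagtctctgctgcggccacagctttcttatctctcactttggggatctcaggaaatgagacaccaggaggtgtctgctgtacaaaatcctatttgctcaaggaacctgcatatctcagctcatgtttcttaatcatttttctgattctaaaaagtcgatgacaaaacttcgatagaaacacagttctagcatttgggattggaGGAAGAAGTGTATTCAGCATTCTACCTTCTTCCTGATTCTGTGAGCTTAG
SH3RF3-AS1: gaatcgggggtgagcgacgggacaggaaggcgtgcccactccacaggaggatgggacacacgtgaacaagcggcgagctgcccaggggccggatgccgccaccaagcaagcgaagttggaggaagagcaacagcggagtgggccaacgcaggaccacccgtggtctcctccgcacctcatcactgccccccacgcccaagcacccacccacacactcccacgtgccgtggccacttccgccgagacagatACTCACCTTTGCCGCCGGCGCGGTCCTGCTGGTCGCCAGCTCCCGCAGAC
CYP1B1-AS1: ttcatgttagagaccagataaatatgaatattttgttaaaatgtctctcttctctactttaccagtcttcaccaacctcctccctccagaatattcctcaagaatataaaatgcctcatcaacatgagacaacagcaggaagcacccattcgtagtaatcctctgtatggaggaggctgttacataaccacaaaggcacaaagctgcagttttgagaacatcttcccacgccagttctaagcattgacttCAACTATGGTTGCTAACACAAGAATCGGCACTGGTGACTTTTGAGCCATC
KTN1-AS1: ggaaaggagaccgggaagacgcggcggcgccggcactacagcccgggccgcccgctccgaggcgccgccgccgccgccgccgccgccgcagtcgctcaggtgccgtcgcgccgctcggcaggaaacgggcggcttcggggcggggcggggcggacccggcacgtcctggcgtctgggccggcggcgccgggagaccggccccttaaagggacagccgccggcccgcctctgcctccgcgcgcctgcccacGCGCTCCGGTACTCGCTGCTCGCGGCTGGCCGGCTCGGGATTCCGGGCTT
TRG-AS1: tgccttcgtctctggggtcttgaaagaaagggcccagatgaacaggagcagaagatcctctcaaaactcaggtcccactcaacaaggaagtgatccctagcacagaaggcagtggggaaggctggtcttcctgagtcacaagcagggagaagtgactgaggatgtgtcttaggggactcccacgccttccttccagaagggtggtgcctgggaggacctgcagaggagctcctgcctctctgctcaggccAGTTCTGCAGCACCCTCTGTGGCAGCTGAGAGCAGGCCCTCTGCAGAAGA
The 6 windows fall into unlike kinds of promoter. Those of KTN1-AS1 (80.0% G and C, 54 CpG), LINC00900 (68.0%, 24 CpG) and SH3RF3-AS1 (67.3%, 25 CpG) are rich in CpG. Those of LINC00996 (43.0%, 3 CpG), CYP1B1-AS1 (41.3%, 3 CpG) and TRG-AS1 (57.3%, 2 CpG) hold few, so both kinds occur among the genes that were higher and among those that were lower.

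Libraries held 7866757 to 13658177 reads in genes. The 7 promyelocyte markers, MPO and ELANE among them, summed to between 31160 and 44550 CPM at 0 h. They summed to between 40060 and 67850 at 4 h and between 9798 and 10520 at 4 d. The 6 markers of maturing neutrophils summed to between 560 and 899 at 0 h, 776 and 937 at 4 h, and 4720 and 6542 at 4 d. Sums of the erythroid, megakaryocyte and B cell lists stayed at or under 27.4 CPM in every library, with 1 of 4 erythroid markers at 0 throughout. The 4 monocyte and macrophage markers, 1 of them at 0 throughout, summed to 22.8 to 26.7 CPM at 0 h, 5.01 to 6.78 at 4 h and 74.9 to 84.7 at 4 d, and the part of these cells in the results was not tested. The 4 T and NK cell markers summed to 50.7 to 67.8 CPM at 0 h, 22.8 to 41.2 at 4 h and 48.4 to 60.9 at 4 d, so that they too were lowest at 4 h, as members were. The 3 B cell markers summed to 9.84 to 17.2 CPM at 0 h and 6.41 to 9.41 at 4 h. The 4 fibroblast and epithelium markers summed to 0.460 to 2.00 CPM at 0 h and 6.05 to 13.0 at 4 d. The part of these 3 lists in the results was not tested. In bulk RNA, more cells with a transcript and more transcript per cell cannot be told apart.

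One library stands apart for these genes. The library of 4 h replicate 1 had reads in 1511 of the 1849 LINC and antisense symbols, against 634 to 716 in the other 11 libraries. In 627 symbols it alone had reads, 2 per symbol at the median and 10 at most, whereas each other library was alone in 1 to 7 symbols. It also had reads in 22265 genes of any kind, against 15198 to 15798, and 28.1% of its reads lay outside genes, against 13.97% to 23.2%. Among the members, 20 were at least 1.5-fold above the mean of the other 4 h libraries in it and 18 at least 1.5-fold below, with a median difference of -0.04 on the log2 scale. Without this library 327 symbols met the limit, with 4 lost and 2 gained. Counts and named calls at 4 h are therefore also given without it. Replicates also differed by base composition. Over the 304 members with an annotated transcript, the difference of 0 h replicate 2 from its group mates rose with the transcript's G and C content (Spearman rho 0.440 across genes of 1 library, a description), as did that of 4 h replicate 3 (rho 0.363), 4 d replicate 1 (rho 0.268) and, least, 2 d replicate 3 (rho 0.123). It fell with G and C content in the other 8 libraries, most in 0 h replicate 1 (rho -0.356), 4 h replicate 1 (rho -0.344) and 4 d replicate 2 (rho -0.311). In 0 h replicate 2, 70 members were at least 1.5-fold above the mates and 26 at least 1.5-fold below. Its part in the results was not tested beyond leaving libraries out.

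**Figure D1:**
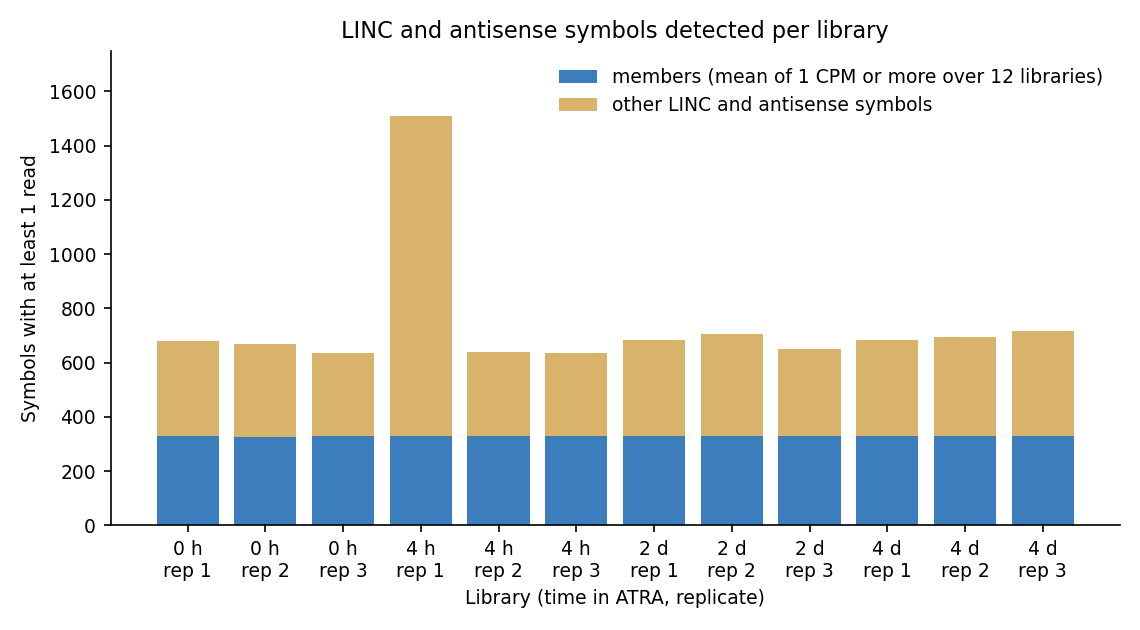
Number of LINC and antisense symbols with at least 1 read in each of the 12 libraries (vertical axis from 0), members below and the other symbols above. The bar of 4 h replicate 1 reaches 1511 symbols while the other 11 lie between 634 and 716, and its excess is in symbols that are not members.

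Members were mostly low in reads. The median mean level was 3.70 CPM, with quartiles at 1.84 and 8.85 CPM. Only 73 reached 10 CPM and 4 reached 100 CPM. The 8 members with the most reads, a measure that also depends on length, held 39.8% of all member reads. They were LRRC75A-AS1, known as the snoRNA host gene SNHG29, LINC00926, LINC01000, LINC00657, known as NORAD, which binds Pumilio proteins, FGD5-AS1, PSMA3-AS1, TNRC6C-AS1 and LINC00265. Just inside the limit were LINC00260 (1.01 CPM), LINC01530 (1.01) and HEXA-AS1 (1.01), and just outside were LINC01260 (0.995), PYCARD-AS1 (0.982) and LINC01590 (0.978). All 329 members passed the filter on low counts of the test. Since the limit is on a mean over all times, a gene that is high at 1 time can pass through that time alone: 250 members were at 1 CPM or more in all 4 groups, 42 in 3, 33 in 2 and 4 at 4 d only. The number of members at 1 CPM or more was 299 at 0 h and 274 at 4 h, then 310 at 2 d and 313 at 4 d.

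The share of gene reads in members was lowest at 4 h and highest at 4 d. At 0 h it ran from 0.344% to 0.400% over the 3 libraries, at 4 h from 0.287% to 0.335%, at 2 d from 0.372% to 0.436% and at 4 d from 0.454% to 0.481%. The 4 h libraries all lay below the 0 h libraries and the 4 d libraries all lay above every other, while those of 0 h and 2 d overlapped. A single gene weighs on the step to 4 h. LINC00926 had a mean of 507 CPM at 0 h and 251 at 4 h, where all members summed to 3436 to 4003 and 2869 to 3353. Whether the libraries of 0 h and 4 h stay apart without it was not measured. The library of 4 h replicate 1, at 0.335%, was the highest of its group.

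For the tests, counts were scaled by TMM factors and fitted with edgeR's quasi-likelihood model over all 12 libraries and 12671 genes, and calls are those with a p under 0.05 after Benjamini-Hochberg adjustment over all of them. At 4 h against 0 h, 2 members rose and 26 fell, where 2.00% of all genes tested rose and 4.23% fell. At 2 d against 0 h, 40 rose and 33 fell (all genes, 16.9% and 18.7%). At 4 d against 0 h, 102 rose and 55 fell (all genes, 28.1% and 29.7%). As shares of the 329 members these are 0.608% and 7.90% at 4 h, 12.2% and 10.03% at 2 d, and 31.0% and 16.7% at 4 d. By the F-test over all times 184 members changed, 55.9%, against 63.2% of all genes tested. The share was 63.0% in the 73 members at a mean of 10 CPM or more and 53.9% in the 256 below it. The 3 comparisons with 0 h share the same untreated libraries.

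**Figure D2:**
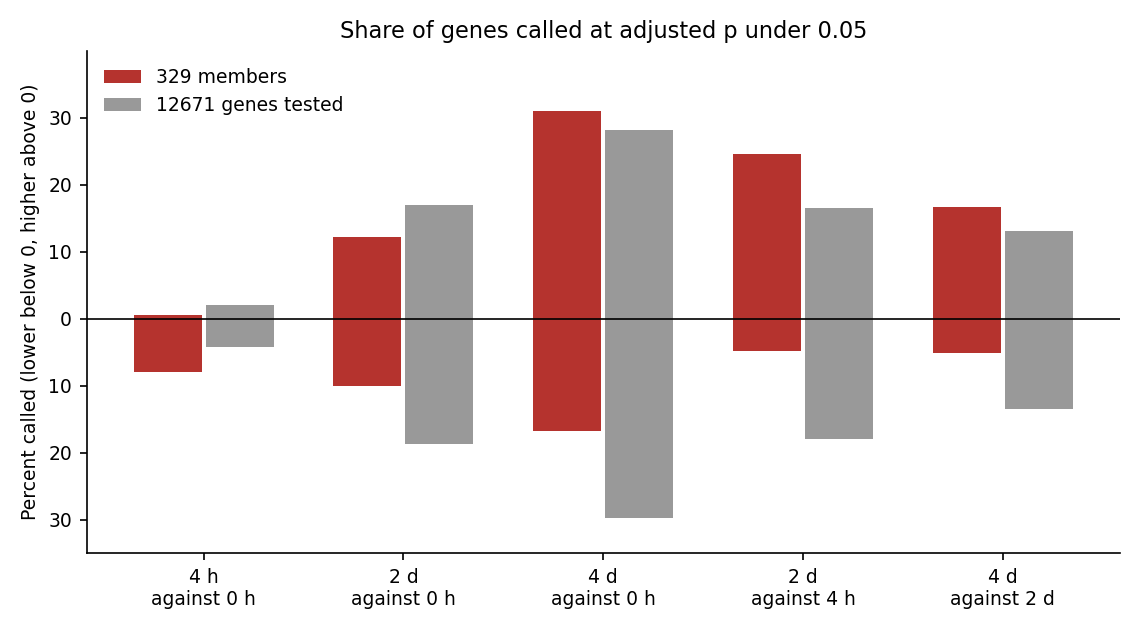
Percent of the 329 members and of the 12671 genes tested that were called higher (above 0) or lower (below 0) in each of 5 comparisons, at an adjusted p under 0.05. At 4 d against 0 h the bars of members reach 31.0% higher and 16.7% lower, those of all genes 28.1% and 29.7%.

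The members' differences were also shifted as a group at 4 h. Their median log2 fold change was -0.34 against 0.00 for all genes tested, and 74.2% of members lay below 0, against 49.7% of all genes. TMM scaling centres most genes near 0 in every comparison, so the values of all genes tested follow from it. Without 4 h replicate 1 the members' median was -0.36, and without 0 h replicate 2 it was -0.25. At 2 d the median was 0.07, against -0.02 for all genes, and single libraries decided its sign: it was -0.03 without 0 h replicate 3, -0.02 without 2 d replicate 3, 0.12 without 2 d replicate 1 and 0.15 without 0 h replicate 2. At 4 d it was 0.19, against 0.00. The same shift at 4 h was seen in the 112 LINC members (median -0.38) and the 217 antisense members (-0.33), in the 73 members at a mean of 10 CPM or more (-0.28) and in the 256 below it (-0.35).

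**Figure D3:**
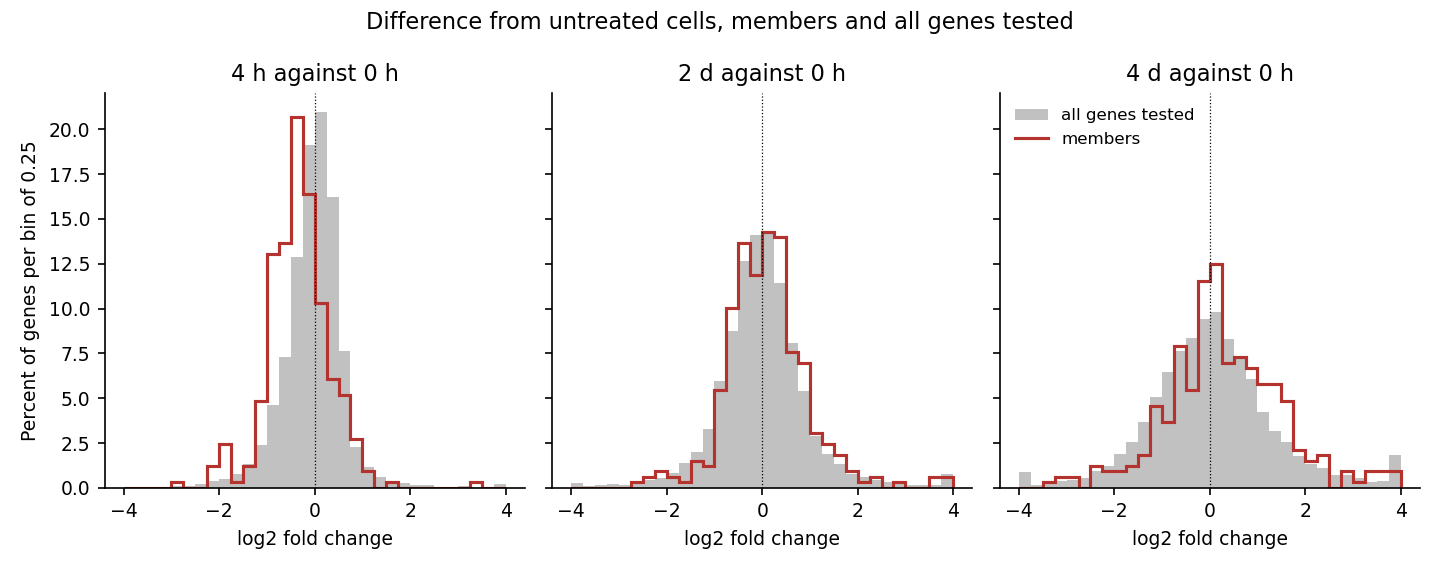
Distribution of log2 fold changes against 0 h (horizontal axis; values past 4 are in the end bins) for the 329 members (red line) and the 12671 genes tested (grey), as percent of genes per bin of 0.25. At 4 h the members' line sits to the left of 0, with a median of -0.34, and at 2 d the 2 distributions lie nearly over each other.

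After 4 h the calls were mostly decreases, by a margin that depended on the libraries used. When the 3 libraries with the highest rho above were left out together, which are replicate 2 of 0 h, replicate 3 of 4 h and replicate 1 of 4 d, 12 members rose and 46 fell, where 12.3% of all genes tested rose and 12.6% fell. The 6 members that fell most with groups that do not overlap were LINC00937, LINC01011, FOXD2-AS1, LINC01506, ITGB2-AS1 and LINC01311, and the 2 that rose were LINC00900 and LINC01272. LINC01311 stood at 9.65, 18.1 and 10.04 CPM in the 3 libraries at 0 h and at 2.93, 2.98 and 3.73 at 4 h. It fell by 1.97 (SE 0.29, edgeR adjusted p = 0.00146) on the log2 scale and kept that low level later, at 1.97 to 3.17 CPM at 2 d and 2.28 to 3.43 at 4 d. FOXD2-AS1, which takes its name from the forkhead factor gene FOXD2, stood at 3.95, 7.004 and 4.19 CPM at 0 h and at 0.733, 1.31 and 1.44 at 4 h, a log2 fold change of -2.10 (SE 0.35, edgeR adjusted p = 0.00381). At 2 d it stood at 2.80 to 4.80 CPM, overlapping the untreated range, and at 4 d at 1.66 to 2.81 (-1.24, SE 0.34, edgeR adjusted p = 0.00653). The level of LINC01011, which overlaps NQO2 on the same strand so that its reads are uncertain, went from 2.30, 1.18 and 0.974 CPM to 0.275, 0.508 and 0.170 (-2.15, SE 0.48, edgeR adjusted p = 0.0193). FOXD2 itself was also lower at 4 h, by -1.66 on the log2 scale (SE 0.44, edgeR adjusted p = 0.0419).

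ITGB2-AS1 fell first and rose later. It overlaps ITGB2 on the other strand, the gene of the beta 2 chain shared by the leukocyte integrins. Its levels were 13.8, 26.5 and 10.9 CPM at 0 h, 3.39, 4.21 and 5.09 at 4 h, 20.5, 25.3 and 28.3 at 2 d, and 190, 92.6 and 106 at 4 d. The 4 h libraries lay below and the 4 d libraries above every other library. Being called lower at 4 h and higher at 4 d was seen in 8 of the 329 members (2.43%) and in 1.69% of all genes tested. For ITGB2-AS1 the log2 fold change was -2.01 at 4 h (SE 0.36, edgeR adjusted p = 0.00542) and 2.92 at 4 d (SE 0.34, adjusted p = 7.93e-06). ITGB2 followed another course: it did not pass the test at 4 h (-0.10, SE 0.19, edgeR adjusted p = 0.746) and rose by 1.78 at 2 d and by 2.34 at 4 d on the log2 scale.

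FOXD2-AS1, ITGB2-AS1 and LINC01311 were the 3 of the 10 named calls at 4 h that passed under every alternative run, with adjusted p-values of at most 0.0237, 0.0385 and 0.0155. The other 7 calls were each lost without at least 1 library. Without 4 h replicate 1, edgeR's adjusted p was 0.0793 for LINC00900, 0.0906 for LINC00937, 0.0734 for LINC01011 and 0.133 for GATA2-AS1. LINC00937 was also lost without 0 h replicate 2 (0.123), where it stood at 3.73 CPM against 1.19 and 0.877 in the other untreated libraries, and without 4 h replicate 2 (0.0984). LINC01506, 0.877 to 1.47 CPM at 0 h and 0.145 to 0.424 at 4 h, was lost without 4 h replicate 2 (0.106), 0 h replicate 1 (0.0532) or 0 h replicate 2 (0.0604). LINC01272 was lost without 0 h replicate 1 (0.0535) or replicate 3 (0.0582). VIM-AS1 was lost without 4 h replicate 2 (0.0981), 0 h replicate 1 (0.0573) or 0 h replicate 2 (0.0564). LINC01011 was lost without 0 h replicate 1 too (0.0665), and LINC00900 without 0 h replicate 1 (0.0748), 0 h replicate 2 (0.116) or 4 h replicate 2 (0.110). For GATA2-AS1 the adjusted p exceeded 0.05 without any of 9 single libraries, the highest being 0.148 without 0 h replicate 2. Over all members, leaving out 4 h replicate 1 gave 1 that rose and 11 that fell, where 0.854% of all genes tested rose and 1.79% fell. Without 4 h replicate 2 there were 1 and 10, and without 0 h replicate 2 there were 2 and 14.

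LINC00900 was close to absent in untreated cells and rose at each later time. It had 0, 0 and 0.0974 CPM at 0 h, the last value being 1 read, 0.458, 0.508 and 0.254 at 4 h, 3.60, 5.22 and 3.20 at 2 d, and 8.52, 8.72 and 9.67 at 4 d. The groups do not overlap at any step. With 1 untreated read the fold is known only loosely: the ratio to 0 h was 13.4 at 4 h (95% counting interval 2.06 to 563), 140 at 2 d (24.7 to 5567) and 304 at 4 d (54.2 to 12070). These intervals cover counting error only. Between groups with more reads, LINC00900 rose by 3.27 on the log2 scale from 4 h to 2 d (SE 0.37, edgeR adjusted p = 2.36e-05).

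LINC01272 and LINC00996 also rose from 0 h to 2 d and on to 4 d. LINC01272, annotated as SMIM25 in GENCODE and known from monocytes and macrophages, stood at 6.71, 7.55 and 6.53 CPM at 0 h, 10.8, 9.87 and 14.8 at 4 h, 45.7, 49.3 and 54.3 at 2 d, and 72.7, 71.2 and 74.9 at 4 d. Every group lay above the one before it. The log2 fold change was 0.77 at 4 h (SE 0.17), 2.84 at 2 d (SE 0.17) and 3.39 at 4 d (SE 0.17, edgeR adjusted p = 6.35e-09). LINC00996 was not called at 4 h: it stood at 0.643, 0.546 and 0.195 CPM at 0 h and at 0.275, 0.653 and 0.678 at 4 h, overlapping. It then reached 4.54, 6.43 and 6.16 CPM at 2 d and 44.0, 33.6 and 34.2 at 4 d. Its log2 fold change was 3.58 at 2 d (SE 0.35, edgeR adjusted p = 6.24e-06) and 6.29 at 4 d (SE 0.33, adjusted p = 7.98e-09).

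**Figure D4:**
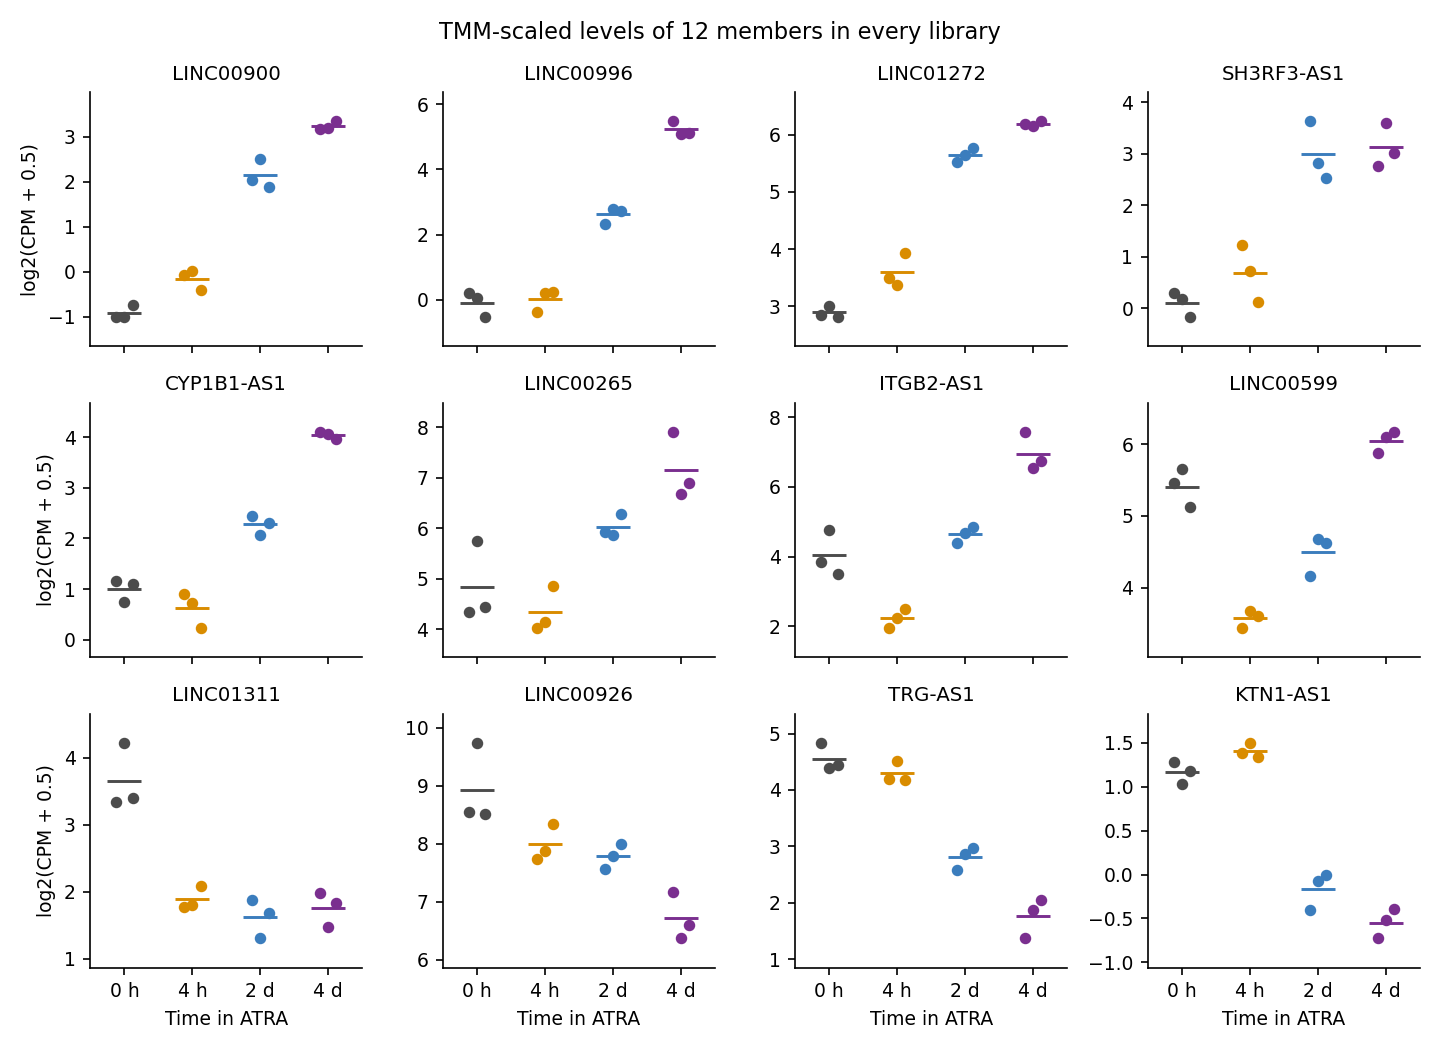
TMM-scaled levels of 12 members, as log2(CPM + 0.5), in each library (points) by time in ATRA, with the mean of the 3 values as a line; each panel has its own vertical range. LINC00900 and LINC00996 climb from about the floor of the scale, ITGB2-AS1 and LINC00599 are lowest at 4 h and highest at 4 d, and TRG-AS1 and KTN1-AS1 drop between 4 h and 2 d.

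By 2 d the members called were split between both directions, and their share over all 329 was below that of all genes in each. This did not hold for falls among the 73 members at a mean of 10 CPM or more, where 20.55% fell and 10.96% rose. Of the 256 below 10 CPM, 7.03% fell and 12.5% rose, beside 18.7% and 16.9% of all genes. The part of read depth was not tested. The 6 members that rose most were LINC00900, LINC01091, SH3RF3-AS1, LINC00996, LINC01272 and LINC00398. LINC01091 stood at 0.0919, 0.273 and 0.390 CPM at 0 h and at 3.68, 4.24 and 5.17 at 2 d, a log2 fold change of 4.06 (SE 0.41, edgeR adjusted p = 9.33e-06). It did not climb further, at 2.81, 4.46 and 2.70 CPM at 4 d. SH3RF3-AS1 had the same shape, with 0.735, 0.637 and 0.390 CPM at 0 h, 11.9, 6.58 and 5.29 at 2 d, and 6.34, 11.6 and 7.58 at 4 d. Its log2 fold change at 2 d was 3.73 (SE 0.46, edgeR adjusted p = 4.97e-05). LINC00398 rose less far, from 0.182 to 0.368 CPM at 0 h to 1.11 to 1.74 at 2 d and 2.79 to 3.32 at 4 d.

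The 6 that fell most at 2 d were LINC01215, VIM-AS1, LINC01311, KTN1-AS1, LINC00884 and FOXP4-AS1. LINC01215 stood at 17.6, 11.01 and 11.6 CPM at 0 h and at 2.40, 2.12 and 2.22 at 2 d, a log2 fold change of -2.57 (SE 0.27, edgeR adjusted p = 1.08e-05), and it had not recovered at 4 d, with 2.29, 3.57 and 2.35. VIM-AS1, opposite the gene of the intermediate filament protein vimentin, did recover in part. It stood at 3.49, 3.27 and 2.05 CPM at 0 h, 0.770, 0.605 and 0.369 at 2 d, and 2.70, 1.88 and 2.09 at 4 d, and its log2 fold change was -2.28 at 2 d (SE 0.42, edgeR adjusted p = 0.001) and -0.40 at 4 d (SE 0.36, adjusted p = 0.351). VIM fell at all 3 times, by 2.43 at 2 d and by 1.72 at 4 d on the log2 scale. KTN1-AS1, opposite the gene of the kinesin-binding protein kinectin, stood at 1.93, 1.55 and 1.75 CPM at 0 h and at 2.11, 2.32 and 2.03 at 4 h, a difference that did not pass the test (0.31, SE 0.29, edgeR adjusted p = 0.511). At 2 d it stood at 0.257, 0.454 and 0.492 CPM. From 4 h to 2 d it fell by 2.42 on the log2 scale (SE 0.36, edgeR adjusted p = 0.000201). Leaving out 2 d replicate 1 lowered the number of members called at 2 d against 0 h from 73 to 48.

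At 4 d the rises outnumbered the falls. The share of members that rose, 31.0%, was near the 28.1% of all genes tested, while 16.7% fell against 29.7%. Falls made up 23.3% of the members at a mean of 10 CPM or more and 14.8% of those below it. Of the 157 members called, 119 changed at least 2-fold, 36.2% of members against 35.2% of all genes tested, and 13 at least 8-fold (3.95% against 4.92%). In 149 of those called the 2 groups did not overlap (45.3% of members against 53.5% of all genes). The median size was 1.38 among those that rose and -1.22 among those that fell, both on the log2 scale. The 6 that rose most were LINC00900, LINC00996, SH3RF3-AS1, LINC01091, LINC00398 and LINC00893. LINC00893, which starts within 1 kb of the coding gene CXorf40A, stood at 0.827, 2.37 and 0.390 CPM at 0 h, 3.34, 3.48 and 6.16 at 2 d, and 13.5, 15.4 and 12.5 at 4 d. Its log2 fold change at 4 d was 3.51 (SE 0.43, edgeR adjusted p = 1.34e-05).

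The 6 that fell most at 4 d were FOXP4-AS1, PCED1B-AS1, KTN1-AS1, TRG-AS1, LINC00884 and LINC01602. TRG-AS1 stood at 28.0, 20.4 and 21.1 CPM at 0 h, 17.9, 22.2 and 17.5 at 4 h, 5.48, 6.81 and 7.39 at 2 d, and 2.08, 3.17 and 3.66 at 4 d, a log2 fold change of -2.95 at 4 d (SE 0.23, edgeR adjusted p = 2.81e-07). LINC01602 fell in the same 2 steps, with 25.4, 21.4 and 17.7 CPM at 0 h, 10.02, 8.93 and 9.23 at 2 d, and 3.84, 4.46 and 3.83 at 4 d. FOXP4-AS1, PCED1B-AS1 and LINC00884 were lower genes, at 2.34 to 3.09, 8.77 to 10.6 and 3.70 to 6.55 CPM at 0 h and at 0.0871 to 0.397, 0.523 to 1.77 and 0.348 to 0.935 at 4 d. LINC00884 overlaps the coding gene ATP13A3 on the opposite strand. The counting's use of strand is not given in the sources used here, so reads of an antisense gene and of its overlapping partner cannot be told apart.

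Among the members with the most reads, LINC00926 fell and LINC00265 and LINC01000 rose at 4 d. LINC00926 stood at 374, 856 and 367 CPM at 0 h and at 143, 81.9 and 96.9 at 4 d, a log2 fold change of -2.31 (SE 0.33, edgeR adjusted p = 5.43e-05). LINC00265 went the other way, from 19.9, 53.2 and 21.2 CPM to 239, 102 and 118, a log2 fold change of 2.28 (SE 0.41, adjusted p = 0.000316). For both genes 0 h replicate 2 was over 1.5 times its mates and 4 d replicate 1 was the highest of its group, 2 of the 4 libraries in which members rich in G and C were higher. LINC01000 rose by 1.11 (SE 0.27), PSMA3-AS1 by 1.00 (SE 0.22) and FGD5-AS1 by 0.78 (SE 0.19) on the log2 scale. TNRC6C-AS1 rose by 2.18 (SE 0.25, edgeR adjusted p = 7.53e-06), and it overlaps TMC6 on the same strand, which makes its reads uncertain. LRRC75A-AS1 (-0.03, SE 0.29, adjusted p = 0.931) and LINC00657 (0.18, SE 0.27, adjusted p = 0.588) did not pass the test, with 255 to 670 and 91.1 to 169 CPM at 0 h and 345 to 531 and 101 to 190 at 4 d.

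Between the treated times the members called were mostly increases. From 4 h to 2 d, 81 members rose and 16 fell, where 16.5% of all genes tested rose and 18.0% fell, and the members' median log2 difference was 0.43. From 2 d to 4 d, 55 rose and 17 fell, where 13.1% of all genes rose and 13.5% fell, and the median was 0.12, or 0.07 without 2 d replicate 2, 0.08 without 2 d replicate 1 and 0.23 without 2 d replicate 3. The largest rises from 4 h to 2 d were those of LINC01091 (3.36, SE 0.37), LINC00996 (3.36, SE 0.33) and LINC00900, and the largest falls those of KTN1-AS1, LINC01215 (-1.95, SE 0.27) and TRG-AS1 (-1.55, SE 0.22). From 2 d to 4 d, LINC00996 (2.71, SE 0.25), ITGB2-AS1 (2.39, SE 0.33) and DLGAP1-AS1 (1.98, SE 0.37) rose most. PCED1B-AS1 (-1.40, SE 0.43), RBM26-AS1 (-1.39, SE 0.33) and LINC01602 (-1.21, SE 0.18) fell most. The count from 2 d to 4 d dropped from 72 to 39 without 2 d replicate 1, to 40 without 2 d replicate 2 and to 45 without 4 d replicate 3.

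LINC and antisense members were also counted apart. At 4 d against 0 h, 40 of 112 LINC members rose and 18 fell (35.7% and 16.1%). Of 217 antisense members, 62 rose and 37 fell (28.6% and 17.1%), beside 28.1% and 29.7% of all genes tested. At 4 h, 2 LINC members rose and 10 fell (1.79% and 8.93%), while none of the antisense members rose and 16 fell (7.37%). Among all genes tested 2.00% rose and 4.23% fell. Without 4 h replicate 1 the members' counts were 1 and 4, and 0 and 7, beside 0.854% and 1.79% of all genes. Of the 304 members with a GENCODE 29 annotation (92.4%), 141 start within 1 kb of the start of a coding gene on the other strand, 89 others overlap such a gene, 8 of the rest overlap a coding gene on their own strand and 66 overlap none. Counted whatever else they overlap, 24 members share their own strand with a coding gene, 12 LINC and 12 antisense. At 4 d, 40 of the 141 rose and 22 fell (28.4% and 15.6%), and 29 of the 89 rose and 13 fell (32.6% and 14.6%). Of the 66, 25 rose and 14 fell (37.9% and 21.2%). No difference between these classes was tested.

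Antisense members were next set beside the genes they are named for. Of 217 antisense members, 215 have that gene in the files and in 201 pairs it was tested. In these 201 pairs the antisense member was called in 91 and the sense gene in 117 at 4 d. These numbers were 41 and 79 at 2 d, and 16 and 14 at 4 h. Among all genes tested 28.1% rose and 29.7% fell at 4 d. At 4 d both partners were called in 62 pairs, in the same direction in 47 and in opposite directions in 15. In 29 pairs the antisense member alone was called and in 55 the sense gene alone. Whether partners were called together more often than these totals give was not tested. At 2 d both were called in 20 pairs, 17 in the same direction and 3 in opposite directions. At 4 h both were called in 5 pairs, all in the same direction. In 120 pairs the antisense member starts within 1 kb of a coding start on the other strand, and 29 of the 38 called pairs at 4 d went the same way. In 73 others the member overlaps a coding gene on the other strand, and 17 of 23 did. These classes were set by any such coding gene, not only the named one, and members of the first can overlap a gene too. Since strand use is not given, part of a shared direction in overlapping pairs of either class could be shared reads, which was not tested.

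**Figure D5:**
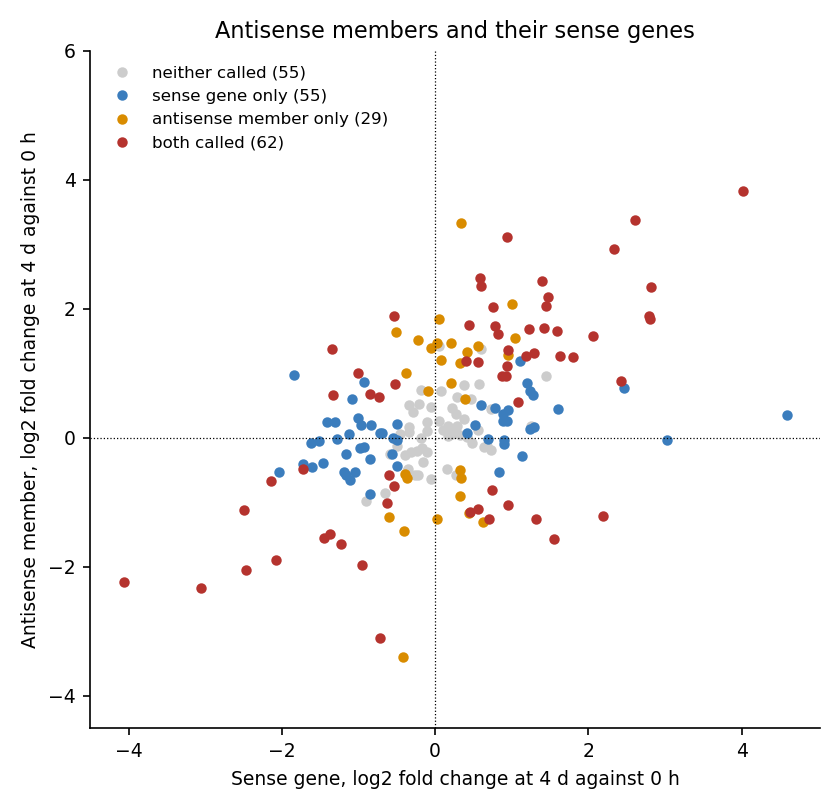
Log2 fold change at 4 d against 0 h of 201 antisense members (vertical) and of the sense gene each is named for (horizontal), coloured by which of the 2 was called at an adjusted p under 0.05. Of the 62 pairs with both called, 47 lie in the quadrants where both moved the same way and 15 in the other 2.

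Single pairs show how far partners went together. SH3RF3, which encodes a scaffold protein with SH3 domains, stood at 3.86, 4.28 and 4.19 CPM at 0 h and at 72.2, 68.1 and 59.8 at 4 d, a log2 fold change of 4.02 (SE 0.16) beside 3.82 (SE 0.46) for SH3RF3-AS1. The gene had already risen at 4 h (0.74, SE 0.16, edgeR adjusted p = 0.0169), where the antisense member did not pass the test (0.99, SE 0.53, adjusted p = 0.249). CYP1B1, a cytochrome P450 gene, rose by 2.61 (SE 0.40) at 4 d and CYP1B1-AS1 by 3.38 (SE 0.25, edgeR adjusted p = 1.71e-07), the latter from 1.75, 1.18 and 1.66 CPM to 16.6, 16.2 and 15.2. GATA2, a transcription factor of blood progenitors, fell by 4.07 (SE 0.26) at 4 d and GATA2-AS1 by 2.24 (SE 0.19, adjusted p = 5.38e-07), the latter from 15.3, 19.5 and 15.1 CPM to 3.32, 3.67 and 3.57. Both partners were called in the same direction in each of these 3 pairs. No difference in size within a pair was tested.

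In other pairs the calls went apart or only 1 partner was called. PSMA3 encodes a subunit of the proteasome and fell by 1.00 (SE 0.14) at 4 d, while PSMA3-AS1 rose by 1.00 (SE 0.22). SBF2-AS1 fell by 1.26 (SE 0.36, edgeR adjusted p = 0.00858), from 3.31, 2.00 and 3.31 CPM to 1.14, 1.69 and 0.784, while SBF2 rose by 1.32 (SE 0.23). RBM26-AS1 fell by 1.11 and RBM26 rose by 0.55, but the antisense call was lost without 0 h replicate 1 (adjusted p = 0.0729). FOXP4-AS1 fell by 3.40 (SE 0.55) while FOXP4 did not pass the test (-0.42, SE 0.23, edgeR adjusted p = 0.13). KTN1 and KTN1-AS1, by contrast, were both called lower. KTN1 stood at 82.7, 44.2 and 89.3 CPM at 0 h and at 33.9, 49.1 and 47.8 at 4 d, a log2 fold change of -0.72 (SE 0.24) beside -3.11 (SE 0.42) for KTN1-AS1. FGD5 had reads in 4 h replicate 1 alone (1.01 CPM), though FGD5-AS1 stood at 50.1 to 129 CPM in all 12 libraries.

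Lists of symbols with known roles were read out from the same fit. They were chosen with earlier results of these data known, so their shares are a description. Of 26 symbols on the antisense list of immune and myeloid genes, 21 were in the files and 11 were members. A symbol can pass the limit through the time at which it is high. Of these 11 members, 6 rose and 3 fell at 4 d (54.5% and 27.3%, beside 28.1% and 29.7% of all genes tested). Their median log2 fold change was 1.31 against 0.00 for all genes. ITGB2-AS1, CYP1B1-AS1 and GATA2-AS1 belong to this list, as does ADORA2A-AS1, named for an adenosine receptor gene, which rose by 2.07 (SE 0.33, edgeR adjusted p = 0.000141) at 4 d. The list of LINC genes with a studied role or myeloid expression had 14 members, of which 7 rose and 3 fell at 4 d, 50.0% and 21.4% (median 0.48). Beside LINC01272, LINC00265 and LINC00926, it holds LINC00324, which stood at 1.29, 1.46 and 0.585 CPM at 0 h and at 3.32, 3.47 and 3.40 at 4 d (1.60, SE 0.33). At 4 h these 2 lists had 0 and 1 members that rose and 2 and 2 that fell (all genes, 2.00% and 4.23%). At 2 d they had 3 and 2 that rose and 1 and 2 that fell (all genes, 16.9% and 18.7%).

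The list of antisense members at genes of cell cycle, replication and translation went to both sides. Of 18 members, 4 rose and 5 fell at 4 d, 22.2% and 27.8% and so near the shares of all genes tested (median -0.12), 1 rose and 3 fell at 2 d, and none was called at 4 h. EPB41L4A-AS1, a snoRNA host, stood at 28.3, 30.2 and 19.5 CPM at 0 h and at 11.7, 7.04 and 7.93 at 4 d, a log2 fold change of -1.55 (SE 0.22, edgeR adjusted p = 4.73e-05). MCM8-AS1, named for a helicase gene, fell by 1.65 (SE 0.41), and MCM8 by 1.23 (SE 0.15). PAXIP1-AS2 rose by 1.52 (SE 0.44), but without 4 d replicate 2 its adjusted p was 0.0529. None of the 8 HOX cluster antisense symbols with an -AS1, -AS2 or -AS3 suffix in the files reached the limit.

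A few LINC symbols are now known to encode small proteins. Of 4 members on a list of such symbols, 2 fell at 2 d and at 4 d, none rose, and none was called at 4 h. Among all genes tested 18.7% fell at 2 d and 29.7% at 4 d. LINC01272, annotated as SMIM25 in GENCODE, was not on this list and rose at both times. LINC00998, which encodes the membrane protein SMIM30, stood at 57.7, 36.4 and 46.7 CPM at 0 h, 25.4, 29.2 and 27.6 at 2 d, and 15.4, 15.7 and 17.1 at 4 d, a log2 fold change of -1.55 (SE 0.18, edgeR adjusted p = 9.54e-06). LINC00116, which encodes mitoregulin, a peptide of the inner mitochondrial membrane, fell by 1.17 (SE 0.29, adjusted p = 0.00399), from 26.6, 38.8 and 19.6 CPM to 18.4, 9.12 and 10.5. The groups do not overlap for either gene.

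Long noncoding RNAs with other kinds of name, which are not members, give the wider setting. Of 22 tested, 6 rose and 8 fell at 4 d (27.3% and 36.4%, beside 28.1% and 29.7% of all genes), 4 rose and 7 fell at 2 d, and none rose and 2 fell at 4 h. WT1-AS, antisense to the gene of the transcription factor WT1, fell from 8.36, 9.10 and 8.48 CPM at 0 h to 1.11, 1.51 and 1.35 at 2 d and 0.208, 0.0991 and 0.261 at 4 d (-5.41, SE 0.31, edgeR adjusted p = 1.66e-08). HOXA11-AS rose by 2.82 (SE 0.52) and MIR22HG, the host of miR-22, by 2.68 (SE 0.39). MIR17HG, the host of the miR-17 cluster, fell by 2.51 (SE 0.25).

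The start regions of members were compared with those of all genes in the RefSeq table. Windows were found for 238 members (237 distinct windows). The median member window had 64.3% G and C and 24 CpG, against 58.3% and 14 over 27305 windows. The letters AGGTCA, the half-site of nuclear receptors, occurred on either strand in 27 of 238 member windows (11.3%) and in 13.9% of all windows. Direct repeats of the looser half-site RGKTCA (R is A or G, K is G or T) were searched with spacings of 2 and 5 bases. This arrangement of retinoic acid response elements occurred in no member window, and in 12 and 22 of all windows (0.0439% and 0.0806%). At shares that low, 238 windows would mostly hold none, so the absence cannot set members apart. The PU.1 site GAGGAAGT occurred in 5 member windows (2.101%) and in 2.54% of all. The C/EBP site TTGCGCAA occurred in none, and in 35 of all windows (0.128%), a share as little able to set members apart. None of the 6 windows printed above holds AGGTCA. These matches say only which letters lie in a window of 300 bases at each start.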

How the data were processed

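RNA-seq of 12 HL-60 libraries, 3 for each of 4 times in ATRA, was analysed from the deposited counts of reads per gene. Per the submitters' processing notes, the authors used FastQC, Trim Galore 0.6.7, HISAT2 2.1.0, HTSeq 1.99.2 and the build hg19; the gene annotation, library kit and strand setting were not given in the sources used here. The 5 classes of reads assigned to no gene were left out of library sizes; reads outside genes made up 13.97% to 28.1% of a library and ambiguous reads 2.74% to 3.90%. Replicates differed by more than counting noise (chi-square per degree of freedom 3.47 to 98.0), so none was taken as a repeat of another.

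Members were chosen by symbol and mean CPM, and the members and gene lists were chosen with earlier results of these data known. Counts were fitted in R 4.3.3 with edgeR 4.0.16: filterByExpr kept 12671 genes with 99.9% of gene reads, TMM factors ran from 0.864 to 1.10, a model with a mean for each time left 8 residual degrees of freedom over the 12 libraries, and glmQLFTest p-values were adjusted by Benjamini-Hochberg over all genes tested. Levels are TMM-scaled CPM, the SE of a log2 fold change is its size divided by the square root of the F statistic, and ratios with 3 reads or fewer in a group carry 95% counting intervals. The fit was tested on simulated data. Alternatives were RLE factors, other filters, DESeq2 1.42.0, limma 3.58.1 (voom), fewer libraries, a replicate block and stricter thresholds. Named genes are, among called members with groups that do not overlap, the 6 largest changes per direction at each time against 0 h and the 3 largest at each later step, the 8 members with the most reads, the 3 on either side of the limit, 2 to 4 members of each list, and the sense genes of named antisense members. Positions and transcripts came from GENCODE 29 (GRCh38) and start regions from RefSeq (GRCh38.p14), 190 matched by symbol and 48 by synonym; the files hold no coordinates.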

Additional observations from a re-analysis of the deposited data

Results flagged for a closer look

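In 8 members, 2.43% of them beside 1.69% of all genes tested, the difference from 0 h passed the test at both 4 h and 4 d but in opposite directions, lower at 4 h and higher at 4 d. These calls chose the genes and fix the direction of the difference between the 2 times, which is given as a description. On the log2 scale, 4 d against 4 h, it was 4.93 (SE 0.38) for ITGB2-AS1, 3.85 (SE 0.44) for LINC01011, 2.94 (SE 0.23) for MMP25-AS1, 2.80 (SE 0.28) for LINC00921, 2.53 (SE 0.19) for LINC00599, 2.36 (SE 0.29) for LINC00528, 2.27 (SE 0.19) for BAIAP2-AS1 and 1.86 (SE 0.26) for LINC01003. All 8 were picked by these values. LINC00599, the host gene of a miR-124 precursor, shows the shape without overlap of any neighbouring times: 43.5, 49.6 and 34.3 CPM at 0 h, 10.3, 12.2 and 11.7 at 4 h, 17.5, 25.1 and 24.1 at 2 d, and 58.3, 67.7 and 71.3 at 4 d. MMP25-AS1, opposite the gene of a matrix metalloproteinase of neutrophils, stood at 13.1, 22.5 and 13.6 CPM at 0 h, 6.87, 7.33 and 9.49 at 4 h, and 58.5, 61.6 and 61.6 at 4 d. BAIAP2-AS1 stood at 32.1, 22.6 and 33.4 CPM at 0 h, 13.6, 14.3 and 15.8 at 4 h, and 55.7, 78.0 and 76.7 at 4 d. Both sense genes had the same course. MMP25 changed by -1.36 at 4 h (SE 0.27, edgeR adjusted p = 0.0118) and by 2.80 at 4 d (SE 0.28). BAIAP2 changed by -1.15 at 4 h (SE 0.29, edgeR adjusted p = 0.0310) and by 1.80 at 4 d (SE 0.26). ITGB2, in contrast, was not called at 4 h. MMP25-AS1 overlaps MMP25, and since strand use is not given their reads cannot be told apart.

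The call at 4 h depended on single libraries in 5 of the 8. Without 4 h replicate 1 the adjusted p at 4 h was 0.0775 for MMP25-AS1, 0.0910 for LINC01003, 0.0939 for LINC00528 and 0.0734 for LINC01011. Without 4 h replicate 2 it was 0.0884 for MMP25-AS1, 0.0942 for LINC01003, 0.0687 for LINC00528 and 0.0715 for LINC00921. LINC01003 and LINC00528 were also lost without 0 h replicate 2 (0.0863 and 0.0847), LINC01011 without 0 h replicate 1 (0.0665), and the call of LINC01003 at 4 d without 4 d replicate 1 (0.119), 0 h replicate 1 (0.0781) or 0 h replicate 3 (0.0943). ITGB2-AS1, LINC00599 and BAIAP2-AS1 passed at both times under every alternative run.

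Among symbols that the limit left out, 627 LINC and antisense symbols had reads in 4 h replicate 1 and in no other library.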

How the results depend on the processing

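Across 21 alternatives no named member reversed its direction at any time; 3 of 10 named calls at 4 h, 24 of 26 at 2 d and 34 of 37 at 4 d passed under every one. Lost at 2 d were ADORA2A-AS1 (adjusted p up to 0.0980) and HEXA-AS1 (up to 0.125), and at 4 d HEXA-AS1 (up to 0.0703), PAXIP1-AS2 and RBM26-AS1. The count of members called at 4 h, 28, became 51 with no filter on low counts, 8 in a fit of only the 6 libraries compared, 8 at an adjusted p under 0.01, and 58 with replicate 2 of 0 h, replicate 3 of 4 h and replicate 1 of 4 d left out together (12 rose and 46 fell); leaving out single libraries gave 11 to 35, with 16 without replicate 2 of 0 h, 12 without replicate 1 of 4 h and 11 without replicate 2 of 4 h. With no filter the median of all genes moved from 0.00 to 0.27 at 4 h, and the members' median was -0.34 in both. The cause of these shifts was not tested. At 2 d against 0 h, 73 became 44 at an adjusted p under 0.01 and 46 at a fold of at least 2, and 48 (without replicate 1 of 2 d) to 86 with single libraries left out. At 2 d against 4 h, 97 became 56 and 61. At 4 d against 2 d, 72 became 30 and 46, and 39 to 91 with single libraries left out, with 39 and 40 without replicates 1 and 2 of 2 d and 45 without replicate 3 of 4 d. At 4 d against 0 h, 157 became 132 to 159. With 2 CPM as the limit there were 233 members. No pairing by replicate number was seen: deviations of libraries with the same number correlated at a median of -0.385, and 6 of 18 were above 0.1. Of 12 libraries, 2 correlated best with their own number. Replicate 2 of 0 h, replicate 3 of 4 h and replicate 1 of 4 d correlated at 0.635 to 0.851. These libraries also shared a rise with G and C content, so a pairing of cultures hidden beneath that pattern could not be detected. With the replicate block, 16 members were called at 4 h, 60 at 2 d and 143 at 4 d against 0 h, 84 at 2 d against 4 h, 52 at 4 d against 2 d and 164 by the F-test. Of the members called, 38 of 157 at 4 d and 27 of 73 at 2 d changed less than 2-fold; what size of change the depth of low members allows to be called was not measured.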

Other observations

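Below the limit of 1 CPM lay 1520 LINC and antisense symbols, of which 70 passed the filter of the test. At 4 d against 0 h, 20 of these rose and 11 fell (28.6% and 15.7%, beside 28.1% and 29.7% of all genes tested), at 2 d 3 rose and 5 fell, and at 4 h none rose and 3 fell. Some were present at one end of the time course only, and the following were picked after their values were seen. LINC00501 had 0 reads in the 3 untreated libraries and stood at 1.35, 0.991 and 0.958 CPM at 4 d. BEAN1-AS1 had 1 read at 0 h, none at 4 h, and stood at 1.66, 1.09 and 1.66 CPM at 4 d. USP2-AS1 stood at 1.38, 0.273 and 0.877 CPM at 0 h and at 1.65, 1.31 and 2.29 at 4 h, had 1 read at 2 d and none at 4 d. LINC01226 stood at 1.01, 1.18 and 0.877 CPM at 0 h, had 1 read at 2 d and none at 4 d, and at 4 h it had 1.10 CPM in replicate 1 but 0.0726 and 0.170 in the other libraries.

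HOTAIRM1 is a myeloid antisense RNA of the HOXA locus whose symbol lacks the suffixes of the rule. It stood at 4.87, 4.82 and 3.41 CPM at 0 h, 2.66, 2.40 and 1.44 at 4 h, 5.91, 8.85 and 10.7 at 2 d, and 25.1, 21.8 and 18.6 at 4 d (2.32 on the log2 scale at 4 d, SE 0.26, edgeR adjusted p = 7.30e-06). DANCR, known for holding progenitor cells undifferentiated, stood at 96.3, 105 and 89.1 CPM at 0 h and at 18.7, 15.1 and 17.4 at 4 d (-2.50, SE 0.16, adjusted p = 5.22e-08).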
